A study of Rattus norvegicus with 9 samples.

Results

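The potassium and HCN channel genes described here are Kcna1, Kcna2, Kcna4, Kcnb2, Kcnc2, Kcnip4, Kcnh2, Kcnj3, Kcnj4 and Hcn3. They were found by gene symbol, taking every probe set of the array that is annotated to 1 of these symbols alone. These are 10 of the 10411 genes with a symbol of their own on the array, and 18 of its 15866 probe sets without controls. No probe set shared a member symbol with another gene. Of the 18 probe sets, 10 passed a filter on low signal, exactly 1 for each gene, and 8 did not. The tested 10 carry the results, and the other 8 are given apart from them as values.

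RNA came from the dorsal root ganglia (DRG) at lumbar levels L4 to L6 of Sprague-Dawley rats. The groups were rats injected with streptozotocin (STZ, which destroys pancreatic beta cells and so makes animals diabetic) and given FK1706, STZ-injected rats given vehicle, and rats without STZ given vehicle, called normal below. Ganglia were taken after 1, 2 and 3 weeks of dosing, and equal amounts of RNA from 5 rats went onto each array, so each group had 1 array per week and 3 in all. The dose of FK1706, an immunophilin ligand, and the age and sex of the rats are not given in the sources used here. No group had a second pool within a week, so a difference between groups is set against the spread between pools, which includes any change of that difference from week to week. These are whole ganglia, in which fewer cells of a type and less RNA per cell cannot be told apart.

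DRG neurons carry touch, temperature and pain signals from the body to the spinal cord. Potassium channels let potassium leave the cell, which brings the membrane back to rest after an action potential and sets how easily the next one starts. HCN channels open on hyperpolarization and carry an inward current that drives the cell back towards threshold, so both families bear on how readily a sensory neuron fires. Less potassium current or more HCN current in these neurons is widely studied as a source of spontaneous firing in neuropathic pain. The comparison of STZ vehicle with normal rats asks whether channel transcripts differ in diabetic ganglia, and that of STZ FK1706 with STZ vehicle asks whether they differ with the drug.

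The trimmed mean of the deposited signal ran from 361 units, in week 3 of STZ FK1706, to 534 units, in week 1 of normal rats. The arrays were therefore put on one scale by quantile normalization, and all values below are log2 of that normalized signal unless the deposited scale is named. Arrays correlated across probe sets with r from 0.969 to 0.981. Of 17 sensory neuron markers 15 were on the array, and all 15 were over the filter on low signal. Their summed normalized signal was 83584 to 86998 in STZ FK1706 arrays, 84451 to 85436 in STZ vehicle arrays and 83968 to 84873 in normal arrays. Of 5 oligodendrocyte and astrocyte markers on the array 1 was over the filter. The 6 fibroblast and matrix markers were all lower in STZ vehicle than in normal rats, with a median log2 difference of -0.51, and 2 of them passed the test. The 7 myelinating Schwann cell markers were also all below 0, with a median of -0.07, and 1 of 8 skeletal muscle markers was above 0, with a median of -0.44, while none of either list passed. The part of these lists in the values of the channel genes was not tested.

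No channel gene of the 10 passed in any comparison of groups, at an adjusted p under 0.05 in limma with Benjamini-Hochberg adjustment over 9520 tested probe sets. For STZ vehicle against normal, 0.0105% of all tested probe sets passed as higher and 0.0525% as lower. The 10 genes nevertheless leaned to higher signal in STZ vehicle rats. Their differences ran from -0.20 to 0.46 with a median of 0.16, and 9 of 10 were above 0, where all tested probe sets had a median of 0.00 and 51.4% above 0. On the deposited scale 7 of 10 were above 0, with a median of 0.06 beside -0.10 for all tested probe sets. The 4 largest positive differences were those of Hcn3, Kcnb2, Kcnh2 and Kcna1, and Kcnj3 was at -0.20. At an unadjusted p under 0.05, 3 genes were higher (Hcn3, Kcna1 and Kcnh2), against 4.18% of all tested probe sets, and 0 were lower, against 4.53%. The count of 3 depended on single arrays. It was 0 without the week 1 STZ vehicle array, 1 without the week 3 STZ vehicle array or the week 2 or week 3 normal array, and 4 without the week 1 array of STZ FK1706 or of normal rats. It was also 1 on the deposited scale and with a variance prior without a trend.

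Week by week, Hcn3, Kcna1, Kcnb2, Kcnc2 and Kcnh2 were higher in STZ vehicle than in normal rats in each of the 3 weeks. That is 5 of 10 genes, against 15.4% of all tested probe sets, and 0 of 10 were lower in each week, against 15.3%. For Kcna1 and Kcnh2 the 3 STZ vehicle values lay above all 3 normal values, which was so for 6.13% of all tested probe sets, and no gene had all of them below, against 6.62%. On the deposited scale Hcn3, Kcnb2 and Kcnc2 were still higher in each week (3 of 10, against 4.87%), and no gene had STZ vehicle values wholly above the normal ones, against 0.326%. These 10 genes were chosen with earlier results of the same data known, so the counts describe them and test nothing.

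**Figure D1:**
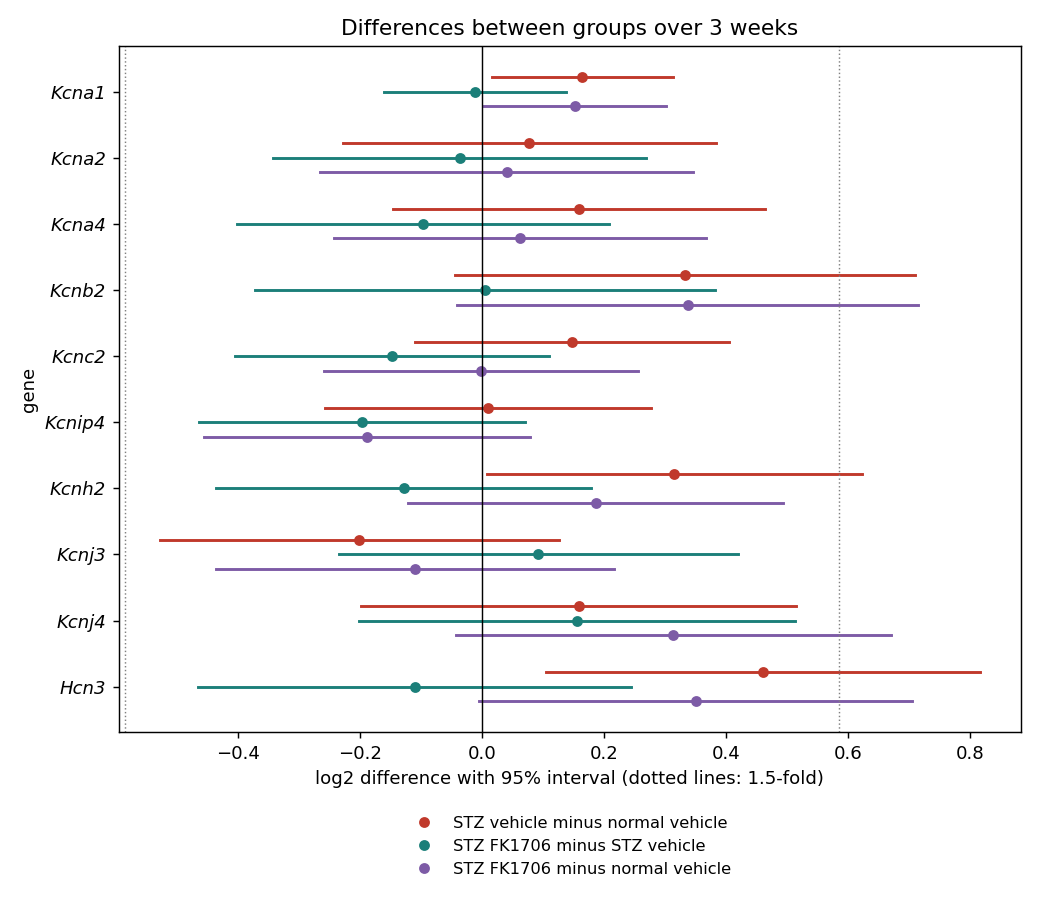
Log2 difference of STZ vehicle minus normal, STZ FK1706 minus STZ vehicle and STZ FK1706 minus normal for the tested probe set of each of the 10 genes (points, with 95% moderated limma intervals as bars; n = 3 pools a group; dotted lines at 1.5-fold). For STZ vehicle against normal 9 of 10 points lie above 0, and the intervals of Hcn3, Kcna1 and Kcnh2 leave out 0, while none of the 10 passed after adjustment.

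Kcna1, Kcna2 and Kcna4 encode voltage-gated subunits of the Shaker family. The Kcna1 and Kcna2 proteins form low-threshold channels that hold back repetitive firing in larger sensory neurons, and Kcna4 carries a fast inactivating current best known from small ones. Kcna1 had log2 signals of 10.97, 10.99 and 10.85 in STZ FK1706 arrays of weeks 1, 2 and 3, of 10.95, 10.98 and 10.90 in STZ vehicle arrays, and of 10.80, 10.89 and 10.66 in normal arrays. The normal arrays held the lowest value in every week. The STZ vehicle values did not overlap the normal ones, although the nearest pair was 10.90 and 10.89. The mean was 10.95 ± 0.041 in STZ vehicle and 10.78 ± 0.119 in normal rats (SD, n = 3 each), a log2 difference of 0.16 (SE 0.067, 95% interval 0.015 to 0.313), or 1.12-fold, which did not pass (limma, adjusted p = 0.539). The sign in week 2 turned with the scale, since the weekly differences were 0.16, 0.09 and 0.24 after normalization but 0.16, -0.10 and 0.13 on the deposited scale.

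Kcna2 and Kcna4 overlapped fully between the groups. Kcna2 had 7.90, 8.05 and 8.15 in STZ FK1706 arrays, 8.08, 7.86 and 8.28 in STZ vehicle arrays and 8.06, 8.02 and 7.91 in normal arrays. Its highest value was the STZ vehicle array of week 3 and its lowest the STZ vehicle array of week 2, so the widest spread lay within that group. STZ vehicle minus normal was 0.08 (95% interval -0.229 to 0.384), and this small difference was -0.03 on the deposited scale. Kcna4 had 7.80, 7.97 and 7.75 in STZ FK1706 arrays, 7.67, 8.23 and 7.90 in STZ vehicle arrays and 7.73, 7.80 and 7.79 in normal arrays. The STZ vehicle group of Kcna4 held both its lowest and its highest array, and the difference from normal was 0.16 (95% interval -0.146 to 0.464).

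Kcnb2 encodes a delayed rectifier subunit of the Shab family, which repolarizes neurons during sustained firing. Its log2 signal was 7.62, 8.09 and 7.83 in STZ FK1706 arrays, 7.96, 7.95 and 7.63 in STZ vehicle arrays and 7.82, 7.44 and 7.28 in normal arrays. In week 1 the normal array lay between the arrays of the STZ groups, and in weeks 2 and 3 both STZ groups lay above the normal array of the same week. The mean of 7.85 ± 0.183 in STZ vehicle against 7.51 ± 0.278 in normal rats (SD, n = 3 each) gave a difference of 0.33 (SE 0.171, 95% interval -0.045 to 0.709), or 1.26-fold, which did not pass (limma, adjusted p = 0.60). By week it was 0.14, 0.50 and 0.36, and on the deposited scale 0.08, 0.33 and 0.29.

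Kcnc2 encodes a subunit of the Shaw family, whose fast channels allow high firing rates. Its tested probe set had 8.25, 8.19 and 8.12 in STZ FK1706 arrays, 8.42, 8.19 and 8.40 in STZ vehicle arrays and 8.32, 7.99 and 8.26 in normal arrays. STZ vehicle was above normal by 0.10, 0.20 and 0.14 in the 3 weeks, a difference of 0.15 in the mean (95% interval -0.111 to 0.404; limma, adjusted p = 0.735). On the deposited scale the week 2 difference was 0.005.

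Kcnip4 encodes a potassium channel interacting protein, an accessory subunit of the Kv4 family that carries A-type current. It is the 1 member that forms no pore. Its log2 signal was 8.60, 8.71 and 8.30 in STZ FK1706 arrays, 8.68, 8.72 and 8.80 in STZ vehicle arrays and 8.62, 8.92 and 8.63 in normal arrays. The week 3 STZ FK1706 array held the lowest value and the week 2 normal array the highest. STZ vehicle and normal rats differed in mean by 0.01 (95% interval -0.258 to 0.276), a difference that was -0.11 on the deposited scale.

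Kcnh2 encodes the ERG channel, a slowly acting brake on firing that is best known for repolarizing the heart. It had 8.61, 9.06 and 8.74 in STZ FK1706 arrays, 8.84, 8.90 and 9.07 in STZ vehicle arrays and 8.80, 8.55 and 8.51 in normal arrays. All 3 STZ vehicle values lay above all 3 normal ones, while the STZ FK1706 values overlapped both. Its mean was 8.93 ± 0.120 in STZ vehicle and 8.62 ± 0.158 in normal rats (SD, n = 3 each), a difference of 0.31 (SE 0.139, 95% interval 0.008 to 0.622), or 1.24-fold, which did not pass (limma, adjusted p = 0.557). The difference was 0.04, 0.35 and 0.56 in weeks 1, 2 and 3, and -0.02, 0.15 and 0.47 on the deposited scale, where week 1 had the opposite sign. The trend of this difference over weeks, 0.26 per week, did not pass either (limma, unadjusted p = 0.149, adjusted p = 0.999).

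Kcnj3 and Kcnj4 encode inward rectifiers, which hold the resting potential. The Kcnj3 protein is a subunit of the channels that G protein-coupled receptors open, opioid receptors among them. Kcnj3 had 8.30, 7.995 and 8.03 in STZ FK1706 arrays, 8.10, 7.99 and 7.96 in STZ vehicle arrays and 8.01, 8.46 and 8.19 in normal arrays. After normalization its tested probe set was the 1 of the 10 with a lower mean in STZ vehicle than in normal rats. The difference was -0.20 (95% interval -0.529 to 0.125; limma, adjusted p = 0.720), and week 1 ran the other way at 0.09. The Kcnj3 probe sets under the filter were at -0.01 and 0.38 in this comparison, so the sign depends on the probe set. Kcnj4 had 7.95, 7.72 and 8.07 in STZ FK1706 arrays, 7.49, 7.70 and 8.07 in STZ vehicle arrays and 7.56, 7.16 and 8.07 in normal arrays. In week 3 the 3 groups of Kcnj4 read the same. STZ vehicle was 0.16 above normal in the mean (95% interval -0.199 to 0.515), with week 1 at -0.07 and week 2 at 0.54.

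Hcn3 encodes an HCN channel. It had the largest difference of the 10 genes between STZ vehicle and normal rats. Its log2 signal was 7.76, 7.92 and 8.18 in STZ FK1706 arrays, 8.23, 7.78 and 8.20 in STZ vehicle arrays and 7.56, 7.20 and 8.06 in normal arrays. The normal array was the lowest of each week, yet the groups overlapped, because the normal array of week 3 lay above the STZ vehicle array of week 2. The deposited signals had the same order within each week, with 208, 206 and 230 units in STZ FK1706 arrays, 324, 188 and 237 in STZ vehicle arrays and 204, 137 and 222 in normal arrays. The mean of 8.07 ± 0.252 in STZ vehicle against 7.61 ± 0.435 in normal rats (SD, n = 3 each) gave a difference of 0.46 (SE 0.161, 95% interval 0.105 to 0.815), or 1.38-fold. It did not pass (limma, unadjusted p = 0.016, adjusted p = 0.467). The difference was 0.67, 0.58 and 0.13 in weeks 1, 2 and 3, a trend of -0.27 per week (limma, unadjusted p = 0.208).

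**Figure D2:**
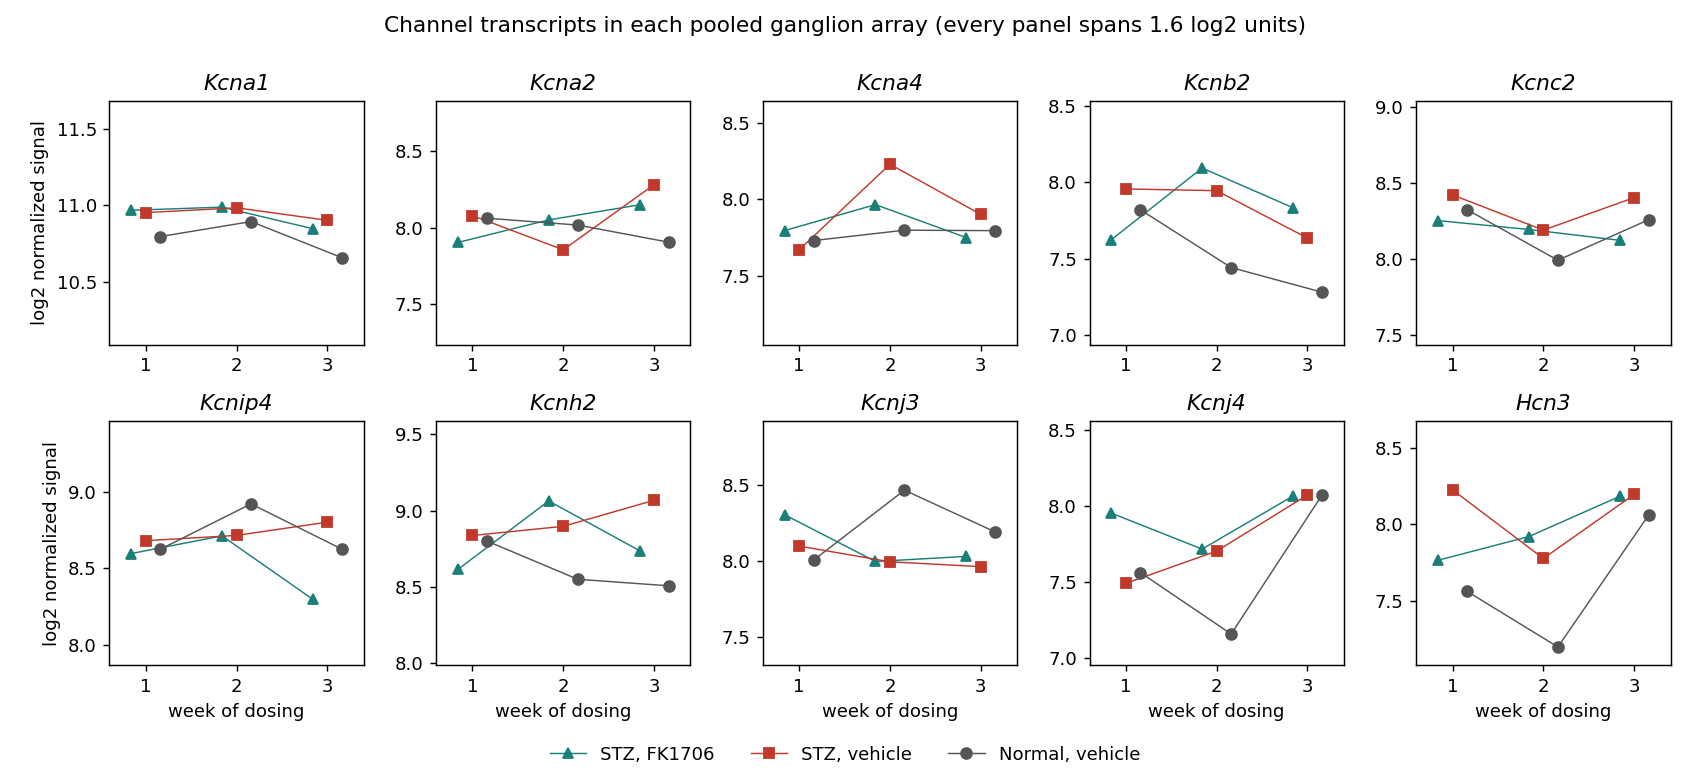
Normalized log2 signal of the tested probe set of each gene by week, with STZ FK1706, STZ vehicle and normal arrays as separate points and lines; each point is 1 pool of 5 rats. For Hcn3 and Kcna1 the normal array is the lowest of every week, and for Kcnj4 the 3 groups meet at 8.07 in week 3.

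**Figure D3:**
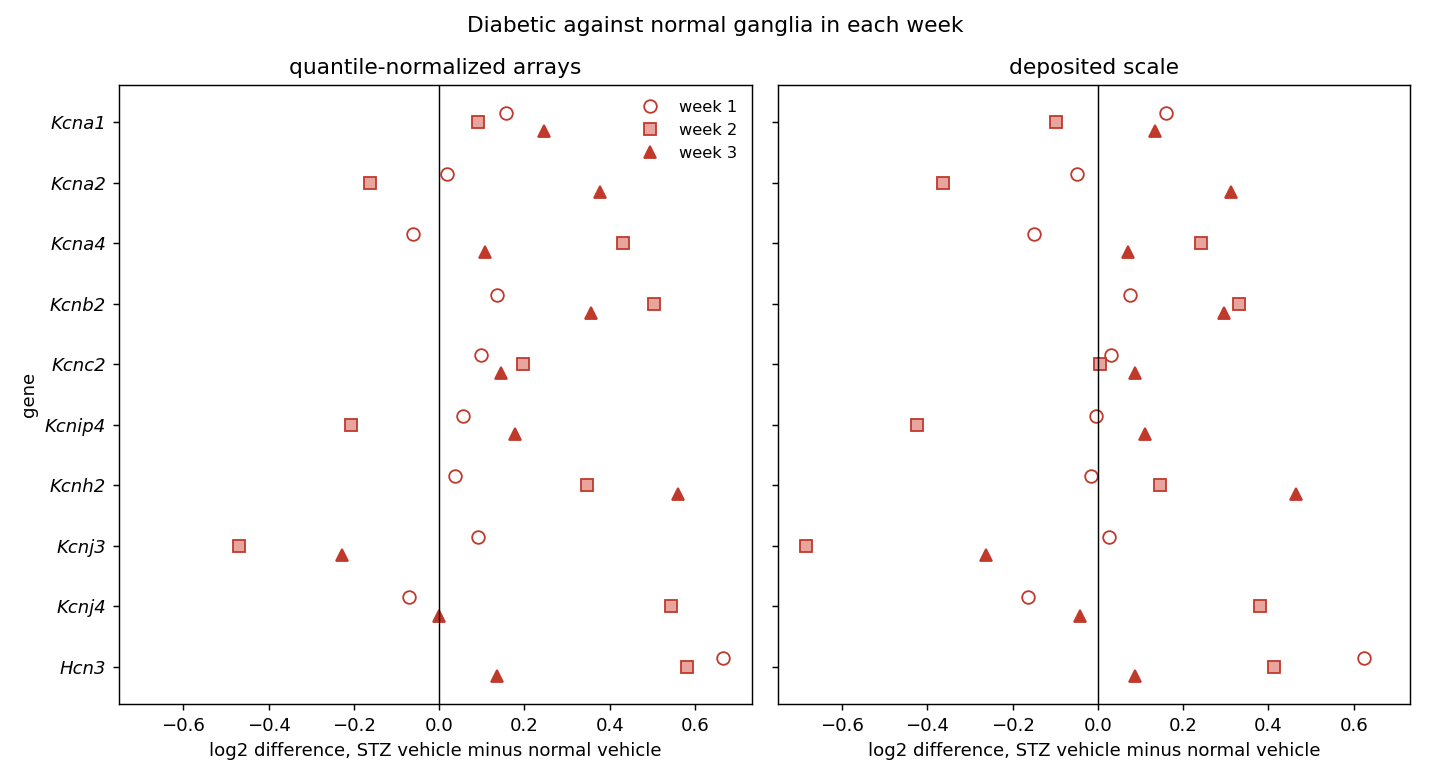
Log2 difference of STZ vehicle minus normal for each gene in weeks 1, 2 and 3, after quantile normalization (left) and on the deposited scale (right), 1 array minus 1 array per point, with no error bar because a week holds 1 pool per group. After normalization Hcn3, Kcna1, Kcnb2, Kcnc2 and Kcnh2 have all 3 points above 0, and on the deposited scale the week 2 point of Kcna1 (-0.10) and the week 1 point of Kcnh2 (-0.02) lie below it.

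With FK1706, no channel gene differed from STZ vehicle beyond the spread between pools. None of the 10 passed (limma, every adjusted p = 0.999), and neither did any other tested probe set on the array, so the percentage called was 0 in both directions. At an unadjusted p under 0.05, 0 of the 10 were higher, against 1.53% of all tested probe sets, and 0 were lower, against 1.85%. The differences ran from -0.20 for Kcnip4 to 0.16 for Kcnj4, with a median of -0.07 and 3 of 10 above 0, beside 49.9% above 0 over all tested probe sets. All 10 of the 95% intervals lay within 1.5-fold in either direction. No tested probe set of the 10 genes had groups that did not overlap, against 3.3% of all tested probe sets for higher and 3.52% for lower values.

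Kcnip4 had the lowest of these differences, with means of 8.54 ± 0.215 in STZ FK1706 and 8.73 ± 0.063 in STZ vehicle rats (SD, n = 3 each). The difference was -0.20 (SE 0.121, 95% interval -0.465 to 0.069; limma, unadjusted p = 0.131), and nearly all of it was in week 3, with -0.08, -0.003 and -0.51 in weeks 1, 2 and 3. It was the only gene of the 10 lower in each of the 3 weeks, against 11.8% of all tested probe sets. Kcnj3 was the only one higher in each week, against 12% of all tested probe sets, with 0.21, 0.002 and 0.07, and its week 2 difference was -0.025 on the deposited scale. For Hcn3 and Kcnj4 the weeks differed in size, and week 1 held most of both differences. Hcn3 was at -0.46, 0.14 and -0.01 and Kcnj4 at 0.46, 0.01 and -0.01 in weeks 1, 2 and 3. Kcna1, the gene with the smallest SE, had a difference of -0.01 (95% interval -0.161 to 0.137).

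Against normal rats, the FK1706-treated diabetic rats were compared with the same normal arrays that served for STZ vehicle, so the 2 sets of differences are not independent. None of the 10 genes passed, and 0% of all tested probe sets did. Kcna1 was 0.15 higher (SE 0.067, 95% interval 0.003 to 0.301; limma, unadjusted p = 0.046, adjusted p = 0.608) and was the 1 gene at an unadjusted p under 0.05, against 3.74% of all tested probe sets that were higher at that level. No gene was lower at that level, against 4.42%, and the count of 1 ran from 0 to 2 when 1 array was left out. The Kcna1 difference was -0.01 on the deposited scale, where the median of all tested probe sets was -0.17. Hcn3 and Kcna1 were higher in each of the 3 weeks (2 of 10, against 14%), and Kcnip4 was lower in each (1 of 10, against 13.8%). No tested probe set of the 10 had groups that did not overlap, against 5.89% for higher and 5.97% for lower values.

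Side by side with the STZ vehicle differences, the values for the genes that led there were as follows. Hcn3 was at 0.35 in STZ FK1706 and 0.46 in STZ vehicle rats, each relative to normal. Kcnb2 was at 0.34 and 0.33 in these same groups, with the week 1 array of STZ FK1706 at -0.20. Kcnh2 was at 0.19 in STZ FK1706 and 0.31 in STZ vehicle rats. Kcnj4 had its largest value here, 0.31 (95% interval -0.044 to 0.671; limma, adjusted p = 0.638). The 10 genes had a median of 0.11, with 7 above 0, beside 51.2% over all tested probe sets, and a median of -0.05 on the deposited scale.

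Over the weeks, no channel gene passed the moderated F test (limma), which 0.0525% of all tested probe sets did. At an unadjusted p under 0.05, 2 of 10 were found (Hcn3 and Kcnj4), against 10.7% of all tested probe sets. Without the week 3 normal array the count was 0, and without the week 3 array of either STZ group, or the week 2 array of STZ vehicle or normal rats, it was 1. It was 5 on the deposited scale, and 0 with the filter at percentile 60, which left 3 of the 10 genes. Averaged over the 3 groups, Hcn3 and Kcnj4 had their low point in week 2 and their high point in week 3. Single groups differed from this. Hcn3 in STZ FK1706 and Kcnj4 in STZ vehicle rats were lowest in week 1, and Hcn3 in STZ vehicle rats was highest in week 1. The mean over the 3 groups in weeks 1, 2 and 3 was 7.85, 7.63 and 8.15 for Hcn3 and 7.67, 7.53 and 8.07 for Kcnj4. Week 3 minus week 2 was 0.52 for Hcn3 (SE 0.161; limma, adjusted p = 0.345) and 0.54 for Kcnj4 (SE 0.162; limma, adjusted p = 0.335). Kcna1 ran the other way, with week means of 10.91, 10.96 and 10.80 and a week 3 minus week 2 difference of -0.15 (SE 0.067; limma, adjusted p = 0.477).

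Week is the factor that the scale touches most. On the deposited scale the median of all tested probe sets was -0.43 in week 3 relative to week 1, and Kcna1, Kcnb2, Kcnc2 and Kcnip4 then passed the F test, as did 5936 of 9520 probe sets. Kcna1 was at -0.57, Kcnb2 at -0.54, Kcnc2 at -0.45 and Kcnip4 at -0.46 there, each close to or somewhat below that median. From week 2 to week 3, where that median was -0.22, Hcn3 was at 0.36 and Kcnj4 at 0.39. No gene had a difference between groups whose trend over the weeks passed, and 0% of all tested probe sets had one. That 0% was not stable, since with 1 array left out up to 33 of 9520 probe sets passed for STZ vehicle against normal. Up to 39 did for STZ FK1706 against STZ vehicle and up to 42 for STZ FK1706 against normal. Leaving out 1 array takes the trend model below the 2 residual degrees of freedom it has with all 9. These calls are therefore not read as trends. With all 9 arrays, the trend was under an unadjusted p of 0.05 for 0 of 10 genes in STZ vehicle against normal, against 4.15% of all tested probe sets.

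The 8 probe sets under the filter belong to Kcnc2 (5 of its 6), Kcnj3 (2 of its 3) and Kcnj4 (1 of its 2). Their values come from a fit without the filter, in which none passed. For Kcnc2 they gave 0.37, 0.14, 0.09, -0.26 and -0.04 for STZ vehicle minus normal, on both sides of the 0.15 of its tested probe set. For STZ FK1706 against STZ vehicle the brightest and the dimmest of the 5 had groups that did not overlap, in opposite directions. No share of such probe sets was taken under the filter. Among tested probe sets it was 3.3% for higher and 3.52% for lower values. The brightest of the 5 had 7.13, 6.23 and 7.12 in STZ FK1706 arrays and 7.46, 7.24 and 7.31 in STZ vehicle arrays, a difference of -0.51 (SE 0.216; limma without the filter, adjusted p = 1.00). The dimmest, under the offset on 8 of 9 arrays, ran the other way at 0.21. The probe sets of Kcnj3 disagreed, and the dimmest of the 3 had 6.95, 7.18 and 7.49 in STZ FK1706 arrays, 6.78, 6.60 and 7.56 in STZ vehicle arrays and 6.34, 6.75 and 6.73 in normal arrays. Its STZ FK1706 values all lay above its normal values, as was so for 5.89% of tested probe sets. The difference was 0.60 (SE 0.218; limma without the filter, adjusted p = 0.637), whereas the tested probe set of Kcnj3 was at -0.11 and the remaining one at -0.16 in the same comparison. For Kcnj4 the dimmer probe set gave -0.995 for STZ vehicle minus normal (SE 0.397; limma without the filter, adjusted p = 0.661), against 0.16 from the tested one. Its deposited signal was 16.6, 65.2 and 18.1 units in STZ FK1706 arrays, 6.1, 13.4 and 22.4 in STZ vehicle arrays and 91.8, 66.2 and 18.2 in normal arrays, and after normalization 4 of its 9 values were under the offset of 19.1 units. Both genes thus have a dim probe set with the opposite sign to the tested one.

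**Figure D4:**
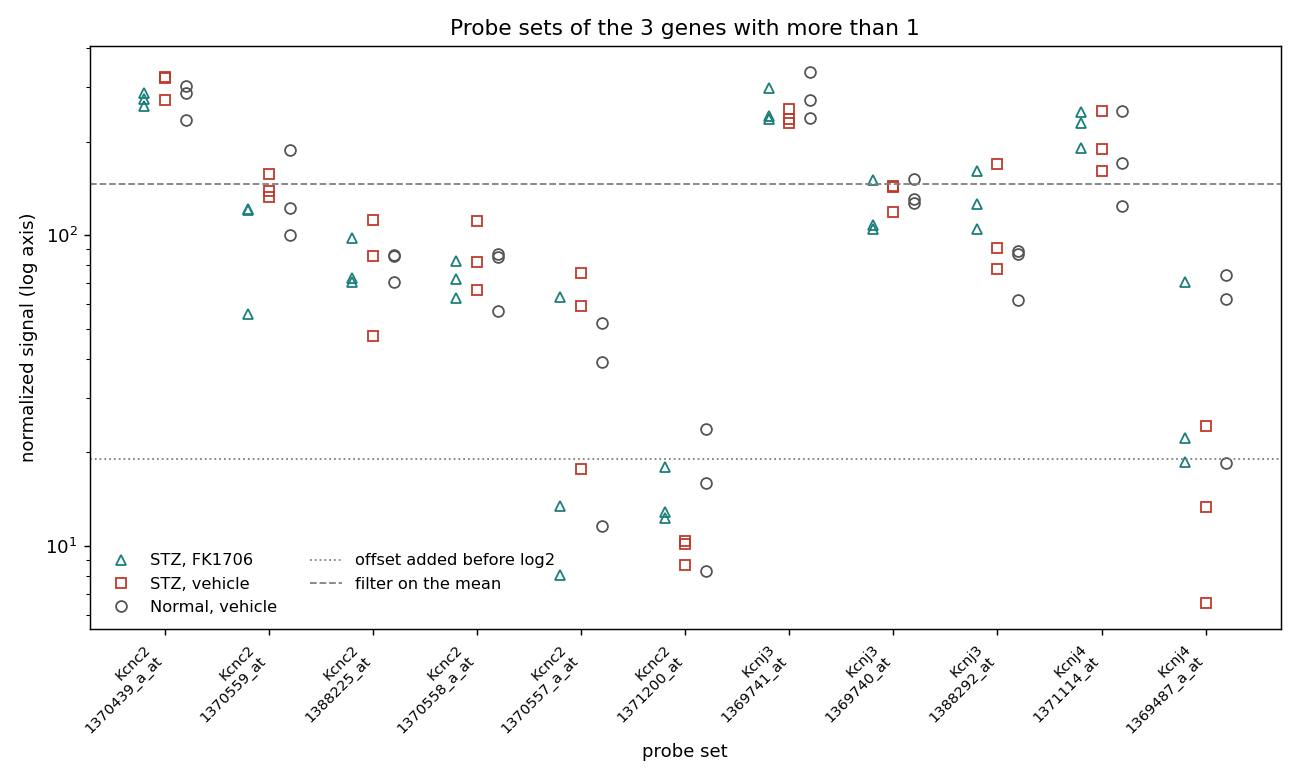
Normalized signal (log axis) of every probe set of Kcnc2, Kcnj3 and Kcnj4, with 1 point per array for STZ FK1706, STZ vehicle and normal rats. The dashed line is the filter on the mean and the dotted line the offset of 19.1 units. The first probe set of each gene is its tested one, and the other 8 have means under the filter, with some values of Kcnc2 and Kcnj4 under the offset.

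Of the wider family, the array held 76 genes with a Kcn or Hcn symbol, 39 of them with a tested probe set. The 66 genes outside the 10 had 29 with a tested probe set and 32 tested probe sets. None of these 32 passed in any comparison. For STZ vehicle against normal their median was 0.04 with 22 of 32 above 0, beside 0.16 and 9 of 10 for the members. The members were chosen with earlier results of these data known, so this contrast tests nothing. For the 32 other probe sets the count above 0 was 7 on the deposited scale, with a median of -0.05. All tested probe sets had 24.2% above 0 and a median of -0.10 there. The EAG and ERG class, to which Kcnh2 belongs, had 3 of 3 tested genes above 0 with a median of 0.31. Its genes under the filter went both ways. Kcnh4 was at 0.22, Kcnh5 at 0.23 and Kcnh6 at 0.41, while Kcnh7 was at -0.15 and Kcnh8 at -0.40. Kcnh3, an EAG-like channel of the brain, had the largest difference of these 32 probe sets at 0.49 (SE 0.119; limma, unadjusted p = 0.00174, adjusted p = 0.323), with 0.45, 0.61 and 0.41 in the 3 weeks. Its STZ vehicle and normal values overlapped after normalization and did not on the deposited scale. Its means were 8.41 in STZ FK1706, 8.38 in STZ vehicle and 7.89 in normal rats. The third tested gene of that class, Kcnh1, was at 0.25 (limma, adjusted p = 0.617). Larger differences lay among the probe sets under the filter. There Kcnk12, a two-pore channel gene, was at 1.05 (95% interval 0.573 to 1.52), with 0.70, 1.15 and 1.28 in the 3 weeks, and Kcnk13 of the same class at -0.81. Without the filter limma called 0 of 15866 probe sets in this comparison, with 1170 at an unadjusted p under 0.05.

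The medians of the other classes lay nearer to 0 in STZ vehicle against normal. The voltage-gated class of Kcna to Kcnd and silent subunits had 11 of 15 above 0 with a median of 0.06, the inward rectifiers 4 of 6 with 0.05, the two-pore leak channels 4 of 5 with 0.06, and the auxiliary subunits 6 of 9 probe sets with 0.03. These class counts and medians include the members, such as Kcna1, Kcna2, Kcna4, Kcnb2 and Kcnc2, all above 0, in the voltage-gated class. Over all tested probe sets 51.4% were above 0. In the HCN class Hcn2 was at 0.02, beside 0.46 for Hcn3. The auxiliary subunit genes Kcnab1 and Kcnip3 were at 0.27 and 0.25 (limma, adjusted p = 0.540 and 0.615). This Kcnip3 probe set had 0.66, -0.20 and 0.29 in weeks 1, 2 and 3. The other tested probe set of Kcnip3 was at 0.20 (limma, adjusted p = 0.642), with 0.17, 0.26 and 0.17.

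For FK1706 against STZ vehicle the wider family had a median of 0.02. Kcnj6, the inward rectifier subunit that pairs with Kcnj3, had the largest value at 0.47 (SE 0.186; limma, unadjusted p = 0.028, adjusted p = 0.999), with -0.07, 0.91 and 0.58 in weeks 1, 2 and 3. Its means were 7.82 in STZ FK1706, 7.35 in STZ vehicle and 7.30 in normal rats, where the filter stood at 7.37. This probe set was thus tested only through its high STZ FK1706 values, so its differences from both other groups carry that selection. The other Kcnj6 probe sets were under the filter. Kcnc1, of the same family as Kcnc2, was at 0.20, with 0.20, 0.19 and 0.21. Kcnk6 was at 0.21 and Kcnab1 at -0.17. Against normal rats STZ FK1706 was at 0.52 for Kcnh3 (limma, adjusted p = 0.287) and at 0.52 for Kcnj6 (limma, adjusted p = 0.511). Kcnc1 was at 0.23 in that comparison and Kcnip2 at 0.17, the second of which was -0.01 on the deposited scale.

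**Figure D5:**
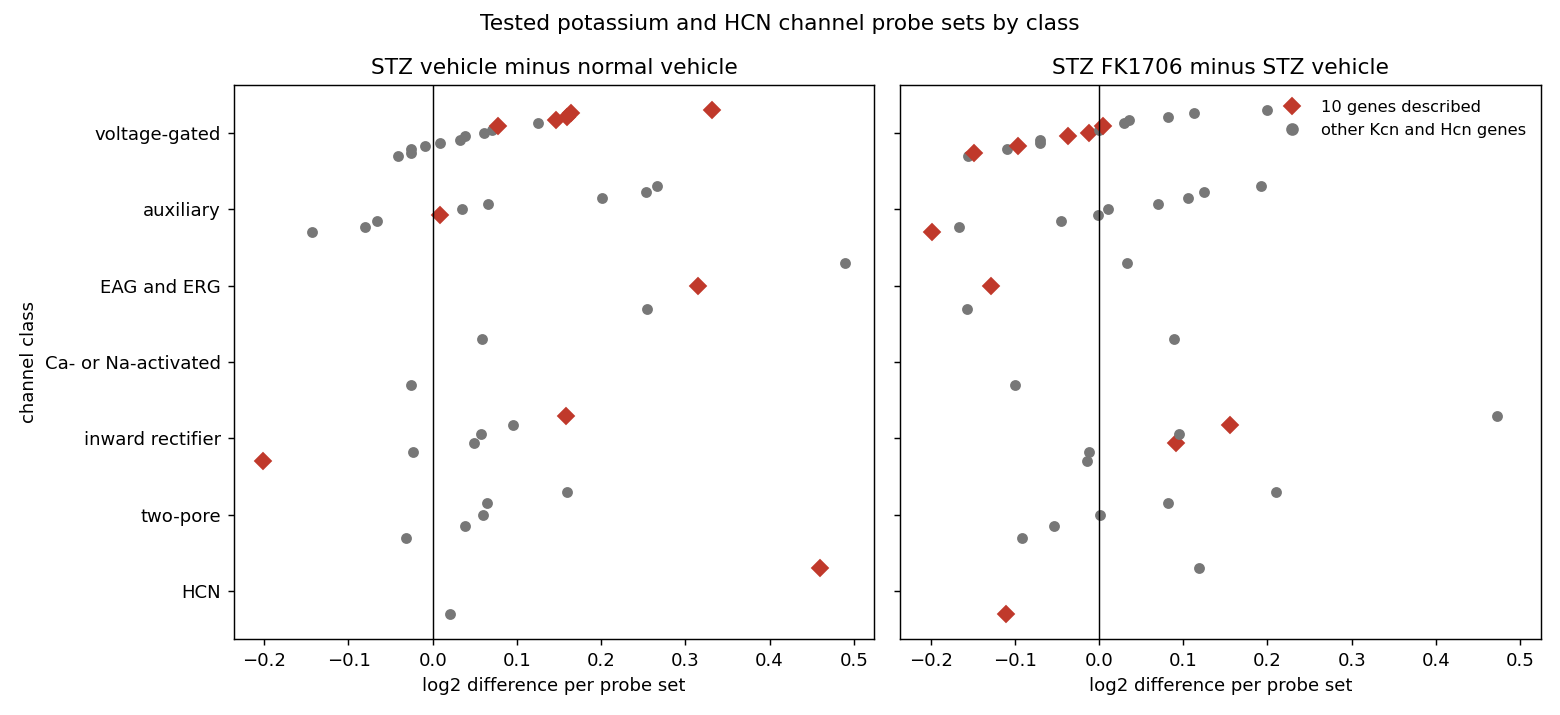
Log2 difference of STZ vehicle minus normal and STZ FK1706 minus STZ vehicle for every tested probe set of the Kcn and Hcn genes, by class, with the 10 genes as diamonds apart from the other 32 probe sets. In STZ vehicle minus normal the tested EAG and ERG probe sets lie between 0.25 and 0.49, with a median of 0.31. The other classes have medians of 0.02 to 0.24. Single probe sets of theirs lie in the same range, among them Hcn3 (0.46), Kcnb2 (0.33) and Kcnab1 (0.27).

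The genes with the most similar profile were found by Pearson's r over the 9 arrays among 6979 genes. Hcn3 was most like Sympk (r = 0.936) and Utrn (0.930), and Kcnh2 most like Zdhhc5 (0.971) and Morf4l1 (0.955). Kcna1 came closest to Arpc2 (0.918) and Marchf6 (0.916), Kcna2 to Oxr1 (0.929) and Arhgef17 (0.926), and Kcna4 to Dut (0.940) and Bex3 (0.904). Kcnb2 was nearest to Ddx1 (0.935) and Setd3 (0.927), and Kcnc2 to Jpt1 (0.913) and Baalc (0.907). Kcnj3 was nearest to Trim35 (0.966) and Rpl23 (0.961), Kcnj4 to Ifngr2 (0.946) and Rps16 (0.946), and Kcnip4 to Mrps33 (0.956) and Pex2 (0.936). These values are the top of a search over many genes with 9 points, which share their arrays, groups and weeks, and they describe these arrays only. Between 2 and 19 genes per member had an r over 0.9.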

How the data were processed

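Each deposited file value is a linear intensity for a probe set, made with MAS5 per the submitters' processing notes. Neither its version nor its scaling target is given in the sources used here. Symbols came from the platform annotation, where 12783 probe sets had 1 symbol, 312 several and 2771 none, beside 57 controls. The 10 member genes all matched the GRCr8 gene table by Entrez identifier. Arrays were quantile normalized, 19.1 signal units (percentile 10 of all values) were added, and log2 was taken. Probe sets whose mean reached percentile 40 (7.37) were tested with limma 3.58.1 in R 4.3.3 (lmFit, eBayes with trend). The model had group and week as factors and 4 residual degrees of freedom, and the model of trends over weeks had 2. All p-values are two-sided. With group means removed, same-week arrays correlated at -8.0e-05 to 0.32, and week stays in the model because the design samples each group once a week. The group comparisons were tried on simulated data with independent noise and no week effect or scale difference between arrays. The week and trend models were not tried in this way. The number of arrays limits precision. Members, lists and the scaling were chosen with earlier results of these data known. Of the other Kcn and Hcn genes, up to 4 with the largest absolute moderated t are named in each comparison. Hcn2, Kcnk12, Kcnk13 and the Kcnh genes under the filter were named after their values were seen, as were the dim probe sets singled out. Alternatives were the deposited scale, a common trimmed mean, offsets of 1 and 50, no filter or percentile 60, 1 probe set per gene, no week block, a prior without trend, and each array or week left out.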

Additional observations from a re-analysis of the deposited data

How the results depend on the processing

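The count of channel genes past the threshold stayed at 0 in every comparison of groups under every alternative run, the fit with no replicate block (week left out) among them, which called 0 in all 3 comparisons. For weeks it was 4 on the deposited scale and 0 otherwise. Trends were not fitted with a week or the block left out. Over all tested probe sets, STZ vehicle against normal had 6 calls, and 0 to 12 under the alternatives (12 on the deposited scale, 1 without the block). STZ FK1706 against normal had 0, against 89 on the deposited scale, and STZ FK1706 against STZ vehicle had 0 throughout, with 322 probe sets at an unadjusted p under 0.05. On the deposited scale the sign turned for STZ vehicle minus normal in Kcnip4 (-0.11) and Kcna2 (-0.033), for STZ FK1706 minus STZ vehicle in Kcnb2 (-0.067), and for STZ FK1706 minus normal in Kcna4 (-0.091), Kcna1 (-0.013), Kcna2 (-0.13) and Kcnip2 (-0.013). Under a common trimmed mean it turned for Kcnip4 (-0.0021) in STZ vehicle minus normal and Kcnc2 (0.0026) in STZ FK1706 minus normal. The cause was not tested. Leaving out 1 array or week turned 37 of 534 values. For STZ vehicle minus normal the range was -0.072 to 0.20 in Kcna2, -0.11 to 0.12 in Kcnip4 and -0.035 to 0.29 in Kcnj4. For STZ FK1706 minus STZ vehicle it was -0.27 to 0.065 in Hcn3, -0.034 to 0.019 in Kcna1, -0.16 to 0.061 in Kcna2, -0.21 to 0.013 in Kcna4, -0.11 to 0.22 in Kcnb2 and -0.039 to 0.20 in Kcnj3. For STZ FK1706 minus normal it was -0.086 to 0.14 in Kcna2, -0.032 to 0.12 in Kcna4, -0.10 to 0.065 in Kcnc2 and -0.31 to 0.069 in Kcnj3. The STZ vehicle minus normal differences of Hcn3 (0.32 to 0.62), Kcnb2 (0.21 to 0.51), Kcnh2 (0.19 to 0.48) and Kcna1 (0.12 to 0.20) kept their sign in these runs. On the deposited scale Kcna1 (-0.42, limma adjusted p = 0.0188) and Kcnip4 (-0.41, 0.0416) passed for week 3 minus week 2, and Kcna1, Kcnb2, Kcnc2, Kcnip4, Kcnh2 and Kcnj3 for week 3 minus week 1. Dim probe sets lie near the offset and are limited by signal.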
